A study of Mus musculus with 16 samples.

Results

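The genes described here are 35 interferon response genes, taken by symbol from the 45777 genes of the deposited mouse table. They hold a type I set of 10 genes (the Ifit, Oas and Mx families), a gamma set of 5 genes (Cxcl9, Cxcl10 and the Gbp family) and 20 others. All 35 were listed, had counts and passed the filter on low counts, as did 19915 genes in all. Ear skin of wild-type C57BL/6 mice was sequenced as polyA RNA, with 3 libraries of mice given anti-OSM, an antibody to the cytokine oncostatin M, and 3 of mice given anti-Ly6G, an antibody to a neutrophil surface protein. Both groups had MC903, the vitamin D analogue calcipotriol, which induces dermatitis-like inflammation: 50 µM in 20 µL of ethanol on both ears each day for 10 days. In the anti-OSM group the antibody went into the skin at 20 µg per mouse on alternate days. The anti-Ly6G mice had 200 µg each by the intraperitoneal route, 2 days ahead of MC903 and again 1 and 4 days after it. Antibody, dose, route and schedule thus differed together, no isotype antibody is named, and the protocol for these mice names no ovalbumin. Age and sex are not given in the sources used here. Ears without antibody were not analysed here, so which of the groups moved cannot be told from a difference between them.

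Interferons are secreted proteins that switch on antiviral and immune genes in nearby cells. Type I interferons bind the receptor made of Ifnar1 and Ifnar2, and the kinases Jak1 and Tyk2 then activate a complex that holds Stat2 and Irf9 and binds the interferon-stimulated response element (ISRE) of genes such as Isg15, Ifit1 and Mx1. Interferon gamma, made mainly by T and NK cells, binds Ifngr1 and Ifngr2 and acts through the gamma-activated site (GAS) of genes such as Irf1. The split is not strict: Cxcl10 and the Gbp genes also respond to type I interferon, and many antiviral genes respond to gamma. In skin, plasmacytoid dendritic cells and keratinocytes are known sources of type I interferon.

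The promoters of these genes are shown because type I and gamma signalling are known to act through different elements, while the sets here were made by gene family. RefSeq promoter windows (GRCm38.p6, the assembly that mm10 names), from 250 bases before to 50 after a start site, were listed for 26 of the 35 members. They were searched on both strands for the ISRE core GAAANNGAAA (TTTCNNTTTC on the other strand) and the GAS core TTCNNNGAA, which reads alike on both strands. An ISRE core was found in 15 of the 26 members (57.7%), against 3.99% of the 27025 genes with a window. A GAS core was found in 7 members (26.9%), against 9.55% of all genes. By set, the ISRE core was in 4 of 7 type I genes, 4 of 5 gamma genes and 7 of 14 others, so both sets held this motif. The GAS core was in 2 of 7, 1 of 5 and 4 of 14, so it was no more common in the gamma set. The windows below run 5′ to 3′ along the gene's strand, with the matches in capitals, and positions give a match's first base counted from the start site as 0. Ifit2 (chr19:34550444-34550743, plus strand) has a GAS core at -241 and no ISRE core in this window, and another listed Ifit2 window holds neither. Its neighbours Ifit3 (chr19:34583279-34583578, plus strand) and Ifit1 (chr19:34640639-34640938, plus strand) have ISRE cores at -156 and -122 and at -104 and -85. Isg15 (chr4:156200769-156201068, minus strand) has 3 overlapping ISRE cores, at -78, -72 and -66. Of the gamma set, Cxcl10 (chr5:92348840-92349139, minus strand) has an ISRE core at -213 and Gbp2 (chr3:142620413-142620712, plus strand) one at -59. Irf1 (chr11:53769764-53770063, plus strand) has a GAS core at -90, and another listed Irf1 window holds neither core. A match is a run of letters and not a site shown to be bound. A window without a match does not show that the gene lacks the element, as bases outside the listed windows were not searched.
Ifit2: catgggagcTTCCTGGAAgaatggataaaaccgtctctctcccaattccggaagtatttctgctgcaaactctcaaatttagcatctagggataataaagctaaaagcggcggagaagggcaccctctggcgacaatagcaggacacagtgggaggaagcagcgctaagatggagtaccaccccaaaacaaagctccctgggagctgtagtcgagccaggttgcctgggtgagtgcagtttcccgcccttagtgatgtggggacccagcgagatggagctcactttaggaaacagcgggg
Ifit3: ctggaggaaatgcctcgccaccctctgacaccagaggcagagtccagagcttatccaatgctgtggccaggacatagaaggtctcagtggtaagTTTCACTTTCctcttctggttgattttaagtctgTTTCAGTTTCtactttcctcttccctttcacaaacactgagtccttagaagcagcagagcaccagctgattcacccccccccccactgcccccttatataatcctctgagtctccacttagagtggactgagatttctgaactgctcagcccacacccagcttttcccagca
Ifit1: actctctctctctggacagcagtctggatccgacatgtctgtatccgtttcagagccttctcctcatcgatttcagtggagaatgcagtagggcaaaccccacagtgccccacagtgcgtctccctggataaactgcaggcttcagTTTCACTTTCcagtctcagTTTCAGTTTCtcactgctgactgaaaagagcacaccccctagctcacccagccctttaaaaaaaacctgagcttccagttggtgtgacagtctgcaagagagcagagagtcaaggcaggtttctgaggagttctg
Isg15: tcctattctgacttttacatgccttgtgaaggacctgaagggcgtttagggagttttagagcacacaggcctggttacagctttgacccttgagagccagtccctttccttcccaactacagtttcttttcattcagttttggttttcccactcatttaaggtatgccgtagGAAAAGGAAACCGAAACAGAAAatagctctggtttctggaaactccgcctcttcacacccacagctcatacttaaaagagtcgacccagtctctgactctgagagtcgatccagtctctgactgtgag
Cxcl10: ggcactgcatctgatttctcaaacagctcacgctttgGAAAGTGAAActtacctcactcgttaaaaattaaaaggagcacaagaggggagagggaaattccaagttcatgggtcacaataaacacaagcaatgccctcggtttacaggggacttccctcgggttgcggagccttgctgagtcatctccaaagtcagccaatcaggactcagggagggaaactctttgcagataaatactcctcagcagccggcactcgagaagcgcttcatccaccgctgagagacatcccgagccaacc
Gbp2: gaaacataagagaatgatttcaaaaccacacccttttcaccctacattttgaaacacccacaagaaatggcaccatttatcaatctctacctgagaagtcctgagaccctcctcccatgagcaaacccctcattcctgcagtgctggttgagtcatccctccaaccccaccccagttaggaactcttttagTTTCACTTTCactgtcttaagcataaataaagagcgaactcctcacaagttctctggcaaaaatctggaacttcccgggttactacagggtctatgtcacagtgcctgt
Irf1: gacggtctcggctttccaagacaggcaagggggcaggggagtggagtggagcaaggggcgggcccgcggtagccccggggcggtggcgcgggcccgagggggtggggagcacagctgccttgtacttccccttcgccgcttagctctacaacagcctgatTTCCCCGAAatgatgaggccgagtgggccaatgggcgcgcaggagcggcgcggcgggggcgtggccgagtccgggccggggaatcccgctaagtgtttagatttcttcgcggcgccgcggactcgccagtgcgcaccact

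Of the interferon response genes 1 passed the test between the antibodies. Ifit2, whose protein slows translation of viral RNA, was the 1 gene of the 35 that was higher with anti-OSM in edgeR's quasi-likelihood test at an adjusted p of 0.05. In the same test 0 were lower and 34 did not pass. Over all 19915 genes the test called 12.1% in either direction, 5.81% higher and 6.27% lower with anti-OSM. Each log2 fold change sets anti-OSM over anti-Ly6G in a fit to the deposited counts. Over the 35 genes 18 were positive and 17 negative, with a median of 0.03 and a range from -1.50 (Cxcl10) to 1.06 (Ifit3). The median over all tested genes was 0.01. At an unadjusted p under 0.05, edgeR gave 4 members, of which Ifit2, Ifit3 and Trim30a were positive and Ifi35 negative. DESeq2 called 3 members, Ifit2 and Trim30a higher and Ifi35 lower, where it called 19.4% of the 17410 genes it gave an adjusted p. Limma-voom called Ifit2 alone, where it called 11.4% of all tested genes.

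Each group held libraries that were high or low over most of these genes. Levels are in CPM (read counts relative to the scaled library size), and the mean over the 35 genes of log2 CPM minus each gene's own mean was -0.67, 0.16 and 0.41 in anti-OSM replicates 1, 2 and 3. It was -0.09, -0.41 and 0.60 in anti-Ly6G replicates 1, 2 and 3, so the groups overlapped. Anti-Ly6G replicate 3 had the highest level for 20 members and anti-OSM replicate 3 for the other 15, while these libraries were highest for 12% and 16.9% of all tested genes. The lowest library was anti-OSM replicate 1 for 18 members, anti-Ly6G replicate 2 for 14 and anti-Ly6G replicate 1 for 3, against 16.7%, 21.9% and 19.3% of all tested genes. Within groups the members' SD on the log2 CPM scale had a median of 0.53, against 0.15 for all tested genes, and all 35 lay above that gene median. It ran from 0.21 (Ifi35) to 1.49 (Cxcl9). With this spread the 95% interval left out a 2-fold difference either way for 12 of 35 members, against 78.2% of all tested genes. For the other 23 the interval did not exclude a 2-fold difference. Whether libraries of a group are separate mice is not stated, so p-values measure the spread between libraries, which may in part be technical.

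**Figure D1:**
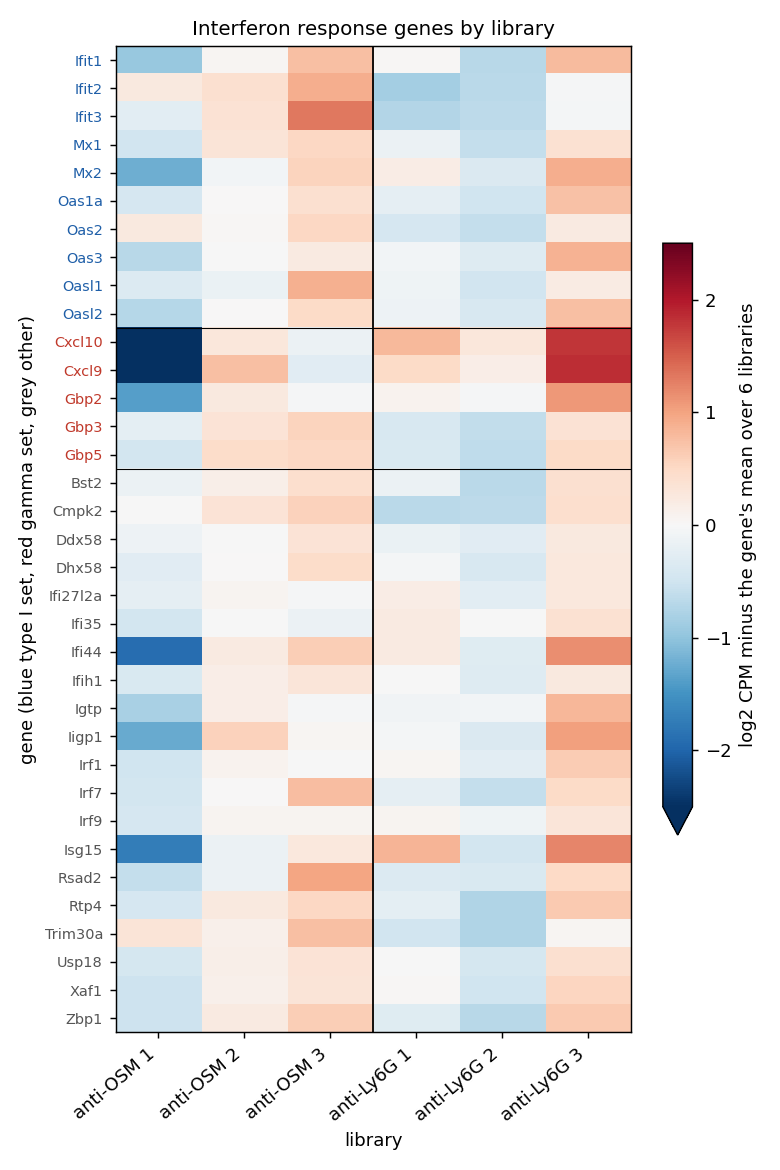
Level of each of the 35 genes (vertical axis) in each of the 6 libraries (horizontal axis), as log2 CPM minus the gene's mean over the 6 libraries, with the type I set in blue, the gamma set in red and the others in grey. Colour runs from low (blue) to high (red), and Cxcl9 and Cxcl10 in anti-OSM replicate 1 (-2.95 and -3.01) lie below the end of the scale. Anti-OSM replicate 1 and anti-Ly6G replicate 2 are pale to deep blue over most genes, and anti-OSM replicate 3 and anti-Ly6G replicate 3 are red over most genes.

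The IFIT genes, whose proteins bind viral RNA and hold back its translation, lie side by side on chromosome 19 and gave the 1 called member. Ifit2 (gene ID 15958, 34550550 to 34576534) was at 15.9, 17.8 and 25.5 CPM in anti-OSM replicates 1, 2 and 3 and at 7.45, 8.46 and 13.3 CPM in anti-Ly6G replicates 1, 2 and 3. All 3 anti-OSM libraries lay above all 3 anti-Ly6G libraries, which held in either direction for 3 of the 35 members and for 35% of all tested genes. The means were 19.8 ± 5.08 and 9.73 ± 3.11 CPM (SD, n = 3 each), a 2.03-fold difference (95% interval 1.34 to 3.08), with a log2 fold change of 1.02 (SE 0.26, edgeR adjusted p = 0.0442). The call was lost with no filter on low counts (1.01, adjusted p = 0.0738), with limma on log2(TPM + 1) (0.88, 0.0538), and without any 1 library except anti-Ly6G replicate 3 (0.79 to 1.16, adjusted p 0.0665 to 0.143). Without anti-Ly6G replicate 3 it was 1.31 (adjusted p = 0.0069).

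Ifit3, described here because its fold change was the largest, which was seen before it was chosen, was at 12.0, 18.5 and 36.1 CPM with anti-OSM and 8.66, 9.19 and 14.0 CPM with anti-Ly6G. The lowest anti-OSM library lay below the highest anti-Ly6G library, and anti-OSM replicate 3 stood well above the rest. Its log2 fold change was 1.06 (95% interval 0.06 to 2.06, edgeR adjusted p = 0.151), and it was 0.52 without anti-OSM replicate 3. Ifit3b, a near-identical copy that can share reads with Ifit3, had 1.29 (adjusted p = 0.0741), so the level of each is uncertain. Ifit1, the member with the 2 ISRE cores nearest its start among the IFIT windows shown, had 5.93, 11.9 and 19.5 CPM with anti-OSM and 11.8, 7.14 and 20.0 CPM with anti-Ly6G. These ranges covered each other almost fully, with a log2 fold change of -0.06 (95% interval -1.34 to 1.22). Of the 3 neighbouring genes, Ifit2 and Ifit3 thus had similar fold changes (1.02 and 1.06) and Ifit1 had one near 0. The wide Ifit1 interval holds both of the other values, and no difference between these genes was tested.

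None of the 5 Oas genes and neither Mx gene passed edgeR's test, nor did any have an unadjusted p under 0.05, and DESeq2 and limma-voom called 0 of these 7. The Oas genes encode 2′-5′ oligoadenylate synthetases, which activate RNase L, and their Oasl relatives. Oas2 was at 35.5, 30.4 and 42.9 CPM with anti-OSM and 22.4, 19.6 and 34.7 CPM with anti-Ly6G. The groups overlapped through anti-Ly6G replicate 3, and the log2 fold change was 0.50 (SE 0.23, edgeR adjusted p = 0.192). Without anti-Ly6G replicate 3 it was 0.78 and passed (adjusted p = 0.0126). The others had 0.35 (Oasl1), -0.07 (Oas1a), -0.16 (Oasl2) and -0.36 (Oas3). Oas1a and Oas1g are near-identical copies, so the level of Oas1a is uncertain. Mx1 and Mx2 encode dynamin-like GTPases that block virus replication, and the Mx1 allele of C57BL/6 mice is known to make no functional protein. Mx1 was at 7.37, 12.9 and 14.8 CPM with anti-OSM and 9.26, 6.80 and 13.4 CPM with anti-Ly6G, and Mx2 at 1.22, 2.77 and 4.26 against 3.33, 2.26 and 5.46 CPM. Both overlapped between the groups, with log2 fold changes of 0.25 for Mx1 and -0.42 for Mx2.

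The 4 sensors of foreign nucleic acid had fold changes near 0. Ddx58 (RIG-I), Ifih1 (MDA5) and Dhx58 (LGP2) are RNA helicases that sense viral RNA, and Zbp1 senses Z-form nucleic acid. Ddx58 was at 33.2, 36.2 and 46.1 CPM with anti-OSM and 32.3, 30.1 and 43.4 CPM with anti-Ly6G. The libraries numbered 3 were high in both groups and the groups overlapped, with a log2 fold change of 0.12 (95% interval -0.26 to 0.51). The fold changes of Ifih1, Dhx58 and Zbp1 were 0.06, 0.13 and 0.18, and the interval left out a 2-fold difference for all of these sensors except Zbp1.

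Isg15, a ubiquitin-like protein that is joined to other proteins, had the most negative fold change outside the chemokines, and its libraries were far apart. It was at 3.18, 9.66 and 12.8 CPM with anti-OSM and 19.2, 7.78 and 24.8 CPM with anti-Ly6G. Anti-Ly6G replicate 2 lay below 2 of the anti-OSM libraries, and the libraries spread 4.01-fold with anti-OSM and 3.19-fold with anti-Ly6G. The log2 fold change was -1.02 (SE 0.62, 95% interval -2.55 to 0.52, edgeR adjusted p = 0.344), and it was -0.62 without anti-OSM replicate 1 and -0.66 without anti-Ly6G replicate 3. Usp18, the protease that removes Isg15 and damps type I signalling, had 0.03.

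Among the other antiviral and interferon-induced genes, none of 9 passed edgeR's test, with 2 at an unadjusted p under 0.05, and DESeq2 called the same 2. Trim30a, a negative regulator of Toll-like receptor signalling with closely related neighbours that can share reads, was at 31.6, 27.4 and 42.3 CPM with anti-OSM and 18.0, 14.8 and 26.2 CPM with anti-Ly6G. Its groups did not overlap, and its log2 fold change was 0.78 (SE 0.24, edgeR adjusted p = 0.0815, DESeq2 adjusted p = 0.00361). Without anti-Ly6G replicate 3 it was 1.04 and passed in edgeR (adjusted p = 0.0125). Ifi35, which binds Nmi and is described for its DESeq2 call after that call was seen, was at 19.4, 26.6 and 24.0 CPM with anti-OSM and 31.4, 26.7 and 34.9 CPM with anti-Ly6G. The groups lay next to each other without overlap, with a log2 fold change of -0.41 (SE 0.14, edgeR adjusted p = 0.0895, DESeq2 adjusted p = 0.0325).

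The most abundant members per length belonged here or to the GTPases. In TPM, which is scaled to transcript length, Ifi27l2a, a small mitochondrial protein gene, had a mean of 209 over the 6 libraries, Gbp2 60.8 and Bst2, the virus-tethering protein tetherin, 55.9. The lowest of the 35 were Ifi44 with 2.06 TPM and Mx2 with 2.75 TPM. Ifi27l2a was at 39.7, 48.4 and 45.4 CPM with anti-OSM and 52.8, 38.7 and 55.5 CPM with anti-Ly6G, and Bst2 at 19.1, 23.3 and 28.3 against 19.1, 13.1 and 27.7 CPM. Both overlapped between groups, with log2 fold changes of -0.14 and 0.24. The remaining antiviral genes had 0.53 (Cmpk2, a nucleotide kinase), 0.25 (Rsad2, which encodes viperin and adjoins Cmpk2 on chromosome 12), 0.15 (Rtp4), -0.07 (Xaf1) and -0.52 (Ifi44). Cmpk2 passed without anti-Ly6G replicate 3 (0.99, edgeR adjusted p = 0.0121).

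The interferon regulatory factors did not pass in edgeR, DESeq2 or limma-voom, and none had an unadjusted p under 0.05 in edgeR. Irf7, the factor that amplifies type I interferon production, was at 18.0, 24.9 and 42.2 CPM with anti-OSM and 21.1, 16.3 and 34.3 CPM with anti-Ly6G. Irf1, a factor induced by interferon gamma and the member with the GAS core at -90, was at 29.8, 45.2 and 41.9 CPM with anti-OSM and 43.8, 35.2 and 65.6 CPM with anti-Ly6G. Both overlapped between groups, and their lowest and highest libraries differed, Irf7 being highest in anti-OSM replicate 3 and Irf1 in anti-Ly6G replicate 3. The log2 fold changes were 0.25 (95% interval -0.68 to 1.18) for Irf7, -0.31 (-0.91 to 0.30) for Irf1 and -0.18 (-0.53 to 0.17) for Irf9, the DNA-binding part of the type I complex.

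**Figure D2:**
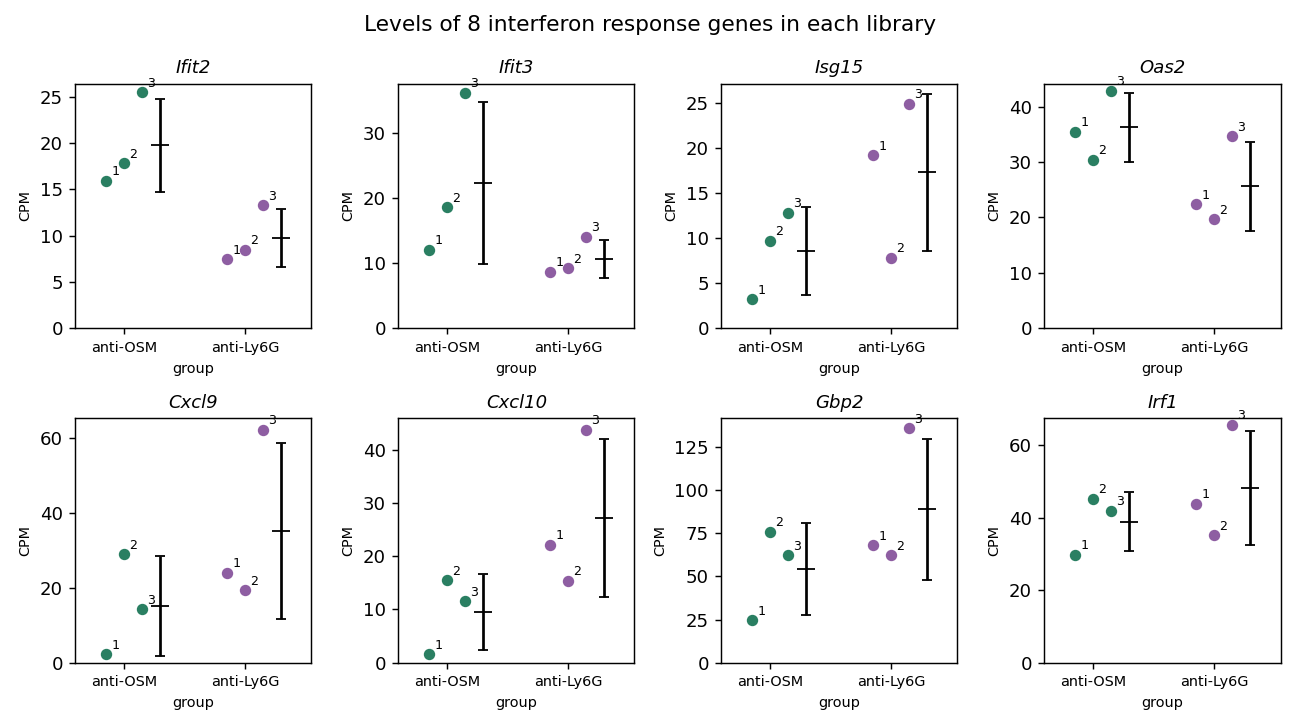
Levels in CPM (vertical axes, from 0) of 8 of the 35 genes in each of the 3 anti-OSM libraries (green) and 3 anti-Ly6G libraries (purple), with replicate numbers beside the points and bars for the mean ± SD. The groups are apart for Ifit2 and overlap for the other genes, and anti-OSM replicate 1 is the lowest point for Isg15, Cxcl9, Cxcl10, Gbp2 and Irf1.

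Of the gamma set, 0 of 5 genes passed edgeR's test, 0 had an unadjusted p under 0.05, and DESeq2 and limma-voom called 0. Cxcl9 and Cxcl10, chemokines that draw Cxcr3-bearing T and NK cells, had the 2 most negative fold changes of all 35 members and the widest spread. Cxcl9 was at 2.2, 29.0 and 14.2 CPM with anti-OSM and 24.0, 19.4 and 62.2 CPM with anti-Ly6G. Cxcl10 was at 1.54, 15.5 and 11.5 CPM with anti-OSM and 22.2, 15.4 and 43.8 CPM with anti-Ly6G. For both, anti-OSM replicate 1 was lowest and anti-Ly6G replicate 3 highest by a wide margin, and anti-OSM replicate 2 lay above anti-Ly6G replicate 2, so the groups overlapped. Within the anti-OSM group alone Cxcl9 spread 13.2-fold and Cxcl10 10.1-fold. The fitted log2 values were -1.21 (95% interval -3.67 to 1.25, edgeR adjusted p = 0.468) for Cxcl9 and -1.50 (-3.69 to 0.68, adjusted p = 0.320) for Cxcl10. Without anti-OSM replicate 1 they were -0.70 and -1.00, and without anti-Ly6G replicate 3 they were -0.52 and -0.98.

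The guanylate-binding proteins and the immunity-related GTPases attack vacuoles that hold intracellular microbes, and none of their 5 genes here passed. Gbp2 was at 24.7, 76.0 and 62.5 CPM with anti-OSM and 68.1, 62.4 and 136 CPM with anti-Ly6G. Its groups overlapped, with a log2 fold change of -0.71 (95% interval -2.01 to 0.59). Its neighbours on chromosome 3 had positive values, 0.41 for Gbp3 and 0.33 for Gbp5. For Gbp2 the low library was anti-OSM replicate 1, while for Gbp3 and Gbp5 it was anti-Ly6G replicate 2. Igtp, an immunity-related GTPase, was at 11.6, 22.7 and 19.8 CPM with anti-OSM and 19.2, 19.4 and 36.4 CPM with anti-Ly6G. It overlapped between groups, with -0.47 (edgeR adjusted p = 0.410), and Iigp1 of the same family had -0.36. All 5 lay below their own means in anti-OSM replicate 1 and anti-Ly6G replicate 2 and above them in anti-OSM replicate 2 and anti-Ly6G replicate 3. Of these genes Gbp2, Gbp3 and Gbp5 have near relatives in the same cluster that can share reads.

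**Figure D3:**
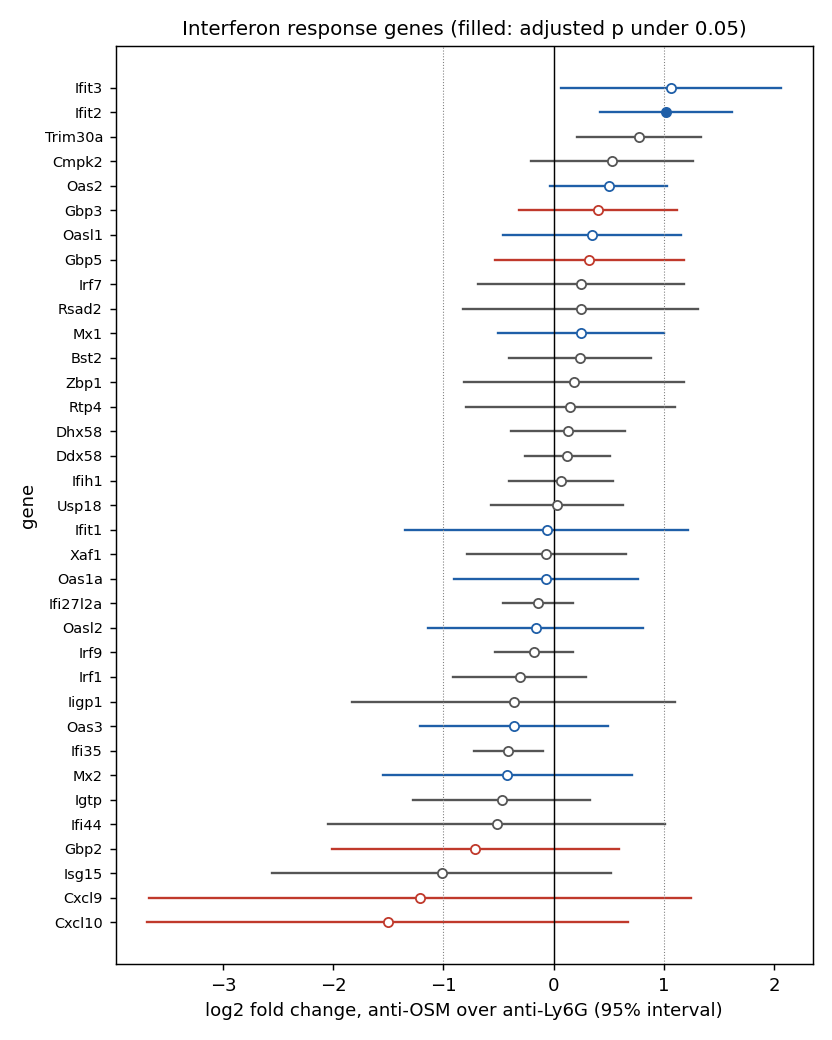
Log2 fold change of anti-OSM over anti-Ly6G (horizontal axis) for each of the 35 genes (vertical axis), as points with 95% intervals, in blue for the type I set, red for the gamma set and grey for the others, with dotted lines at a 2-fold difference. The 1 filled point, Ifit2, has an adjusted p under 0.05, and the values run from -1.50 (Cxcl10) to 1.06 (Ifit3).

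Set side by side, the type I and gamma sets had medians of opposite sign, but each set held genes of both signs and the libraries of a group lay far apart. The type I set had a median log2 fold change of 0.09 over 10 genes (range -0.42 to 1.06, 5 positive and 5 negative). The gamma set had -0.71 over 5 genes (range -1.50 to 0.41, 2 positive and 3 negative), a difference between medians of 0.80. Adding Igtp and Iigp1 to the gamma set made the difference 0.56. The type I median was -0.22 without anti-OSM replicate 3 and -0.13 without anti-Ly6G replicate 2. The gamma median was -0.36 without anti-OSM replicate 1 and -0.27 without anti-Ly6G replicate 3.

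By library, the mean deviation of the type I genes was -0.46, 0.09 and 0.66 in anti-OSM replicates 1, 2 and 3 and -0.24, -0.53 and 0.48 in anti-Ly6G replicates 1, 2 and 3. The gamma genes had -1.61, 0.42 and 0.12 with anti-OSM against 0.12, -0.17 and 1.11 with anti-Ly6G. The type I mean less the gamma mean was 1.15, -0.33 and 0.54 with anti-OSM against -0.36, -0.36 and -0.63 with anti-Ly6G. Anti-OSM replicate 1 was low in both sets and far lower in the gamma set, anti-OSM replicate 3 was high in the type I set only, and anti-Ly6G replicate 3 was high in both. Anti-OSM replicate 2, at -0.33, lay next to anti-Ly6G replicates 1 and 2, at -0.36 each, so the groups touched without overlap in this difference. Group means of this difference were 0.45 ± 0.74 and -0.45 ± 0.16 (SD, n = 3 each). These means describe genes chosen with results known and were given no test.

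**Figure D4:**
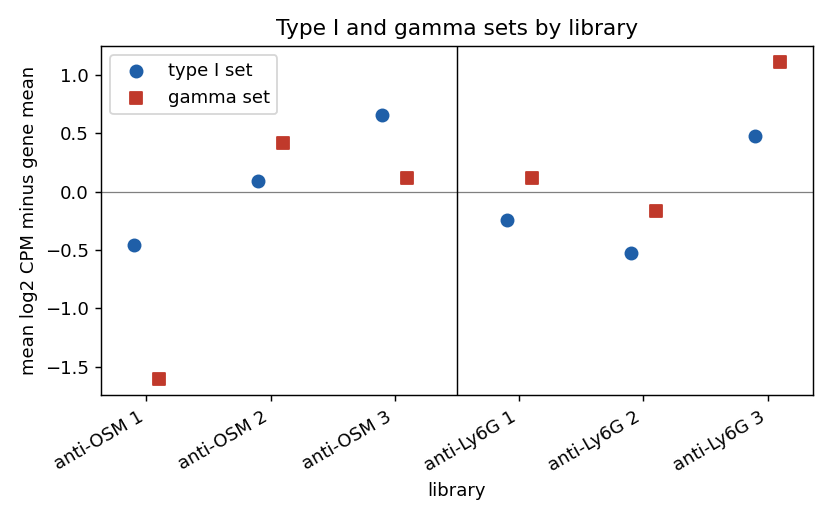
Mean of log2 CPM minus each gene's 6-library mean (vertical axis) over the 10 type I genes (blue circles) and the 5 gamma genes (red squares) in each library (horizontal axis). The gamma mean is lowest in anti-OSM replicate 1 (-1.61) and highest in anti-Ly6G replicate 3 (1.11), and the type I mean is above the gamma mean in anti-OSM replicates 1 and 3 and below it in the other 4 libraries.

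The interferons themselves were close to absent from these libraries. Of 21 listed ligand genes 16 had 0 counts in all 6 libraries, Ifnb1 and all listed Ifna genes among them, where a count of 0 allows up to 0.0466 to 0.0565 CPM (3 counts per library, counting error only). Ifnk, a type I interferon of keratinocytes, had 6 counts in anti-OSM replicate 2 and 0 in the others. Ifng, the gene of interferon gamma, was the 1 ligand gene tested, with 0, 27 and 15 counts in anti-OSM replicates 1, 2 and 3 and 15, 9 and 47 in anti-Ly6G replicates 1, 2 and 3. Its lowest and highest libraries, anti-OSM replicate 1 and anti-Ly6G replicate 3, were also those of 16 of the 35 members, 4 of the type I set (Ifit1, Oas3, Oasl2 and Mx2), 3 of the gamma set (Cxcl9, Cxcl10 and Gbp2) and 9 others. Of all tested genes 16.7% were lowest in anti-OSM replicate 1 and 12% highest in anti-Ly6G replicate 3, and the share with both was not counted. Any part of Ifng in the members' levels was not tested. For Ifng the groups overlapped, and the log2 fold change was -0.63 (95% interval -2.80 to 1.54, edgeR adjusted p = 0.699).

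Receptor and signalling genes were measured far more tightly, and 4 of 15 were higher with anti-OSM and 0 lower, against 5.81% and 6.27% of all tested genes. DESeq2 called 6 higher, limma-voom 2 higher and neither any lower, where they called 19.4% and 11.4% of all genes in either direction. At an unadjusted p under 0.05, edgeR gave 6, all positive. Ifngr1, the ligand-binding chain of the gamma receptor, was at 211, 210 and 191 CPM with anti-OSM and 165, 155 and 170 CPM with anti-Ly6G. All anti-OSM libraries lay above all anti-Ly6G libraries, with a log2 fold change of 0.32 (SE 0.07, edgeR adjusted p = 0.0249). Ifngr2, the second chain, had 0.34 (adjusted p = 0.0459), Il10rb, shared by the receptors of interferon lambda and interleukin 10, had 0.51 (0.0403), and the kinase gene Tyk2 had 0.22 (0.0471). In limma-voom Ifngr2 (0.0531) and Tyk2 (0.0540) did not pass, nor did Tyk2 in edgeR with the RLE or upper quartile scalings (0.0506 and 0.0507). Of the type I receptor chains, Ifnar1 had 0.17 (95% interval -0.05 to 0.39) and Ifnar2 0.34 (0.11 to 0.57, adjusted p = 0.0665), the latter without overlap between groups and named after its values were seen. Neither passed, but the Ifnar2 value was as large as that of Ifngr2, and no difference between the receptors was tested. Stat2 had -0.10 (-0.51 to 0.31) and Socs1, the feedback inhibitor, 0.39 (-0.05 to 0.82), and neither passed.

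**Figure D5:**
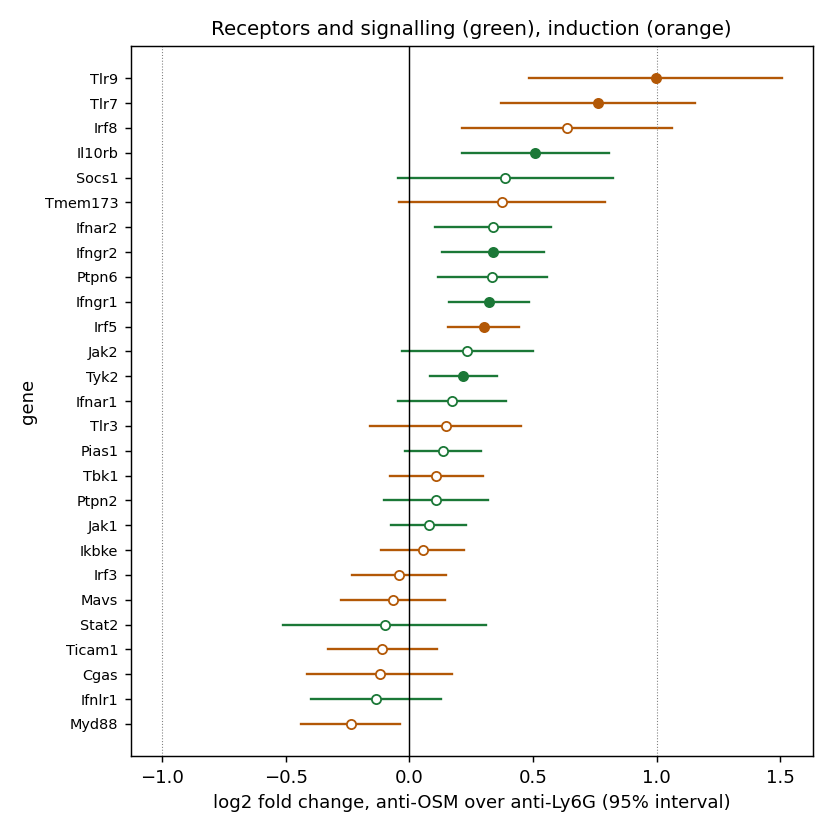
Log2 fold change of anti-OSM over anti-Ly6G (horizontal axis) with 95% intervals for receptor and signalling genes (green) and the genes of interferon induction (orange) on the vertical axis, with filled points for an adjusted p under 0.05 and dotted lines at a 2-fold difference. The 7 filled points, from 0.22 (Tyk2) to 1.00 (Tlr9), are all to the right of 0.

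Of 13 genes that induce interferon, 3 were higher and 0 lower, against 5.81% and 6.27% of all tested genes. Tlr9 and Tlr7, endosomal receptors for DNA and RNA, had 1.00 (SE 0.22, edgeR adjusted p = 0.0268) and 0.76 (SE 0.17, adjusted p = 0.0270), and the transcription factor gene Irf5 had 0.30 (SE 0.06, adjusted p = 0.0211). Tlr9 was at 8.78, 7.71 and 11.5 CPM with anti-OSM and 3.65, 4.21 and 6.16 CPM with anti-Ly6G, without overlap. DESeq2 called 4 of this list higher and 0 lower (19.4% of all genes in either direction), and limma-voom also 4 and 0 (11.4%). In edgeR 1 negative gene had an unadjusted p under 0.05.

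Of 38 tested further antiviral interferon genes 5 were higher and 0 lower, against 5.81% and 6.27% of all tested genes. DESeq2 called 8 higher and 1 lower, against 19.4% of all genes in either direction, and limma-voom 5 and 0, against 11.4%. The 5 in edgeR were Mndal (1.01, edgeR adjusted p = 0.0288), a DNA-binding protein gene, Epsti1 (0.85, 0.0473), Sp100, a nuclear body component (0.69, 0.0473), Samd9l (0.50, 0.0385) and Tdrd7 (0.32, 0.0458). Of 27 further gamma and antigen presentation genes 0 were higher and 1 lower, a smaller share than over all genes in either direction. The 1 was Wars, a tRNA synthetase gene induced by gamma, at -0.37 (SE 0.08, adjusted p = 0.0241). It was at 37.0, 42.0 and 35.6 CPM with anti-OSM and 46.9, 50.7 and 50.5 CPM with anti-Ly6G, without overlap. DESeq2 and limma-voom called the same numbers in this list, and edgeR gave 1 positive gene an unadjusted p under 0.05, Ciita, the master regulator of MHC class II, with 0.36 (adjusted p = 0.159).

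Over these lists together, each gene counted once, 12 of 93 tested genes were higher and 1 lower, with a median log2 fold change of 0.11. All tested genes were called higher in 5.81% and lower in 6.27%. Against 13 calls with all libraries, leaving out anti-OSM replicates 1, 2 and 3 in turn gave 1, 2 and 0, where 3.49%, 4.79% and 3.45% of all genes were called. Leaving out anti-Ly6G replicates 1, 2 and 3 gave 1, 4 and 29, where the share of all genes was 5.3%, 6.5% and 14.8%. By direction these were 0, 1 and 28 higher and 1, 3 and 1 lower. Without anti-OSM replicates 1, 2 and 3 they were 1, 1 and 0 higher and 0, 1 and 0 lower. The 3 lower without anti-Ly6G replicate 2 and the 1 higher without anti-OSM replicate 1 were not among the 13 genes called with all libraries. The log2 fold changes of the 13 genes kept their sign in these fits, and ran for example from 0.28 to 0.36 for Ifngr1 and from 0.81 to 1.24 for Tlr9. Tyk2 did not pass in any of these smaller fits (edgeR adjusted p 0.0635 to 0.158). Of the others, Irf5 also kept its call without anti-Ly6G replicate 2, Tlr9 when anti-OSM replicate 2 was left out, and Wars when either anti-OSM replicate 2 or anti-Ly6G replicate 1 was. The rest kept theirs only without anti-Ly6G replicate 3.

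Markers of cell types that make or answer interferon were also counted in edgeR. Those of macrophages and dendritic cells were higher with anti-OSM for 9 of 16 genes. Of the T and NK cell markers 2 of 18 were called, and of the plasmacytoid dendritic cell markers 0 of 7. Markers of other tissues are given in the next paragraph, with larger shares called for muscle and cartilage. Over all tested genes 5.81% were higher and 6.27% lower. In whole skin, fewer cells of a type and less RNA per cell cannot be told apart. The summed level of 16 macrophage and dendritic cell markers was 2021 to 2524 CPM with anti-OSM and 1184 to 1684 CPM with anti-Ly6G, with 0 lower in edgeR. Of 18 T and NK cell markers 2 were higher and 0 lower in edgeR, with sums of 107 to 117 CPM against 65.6 to 95.2 CPM. DESeq2 called 6 of them higher and 0 lower, where it called 19.4% of all genes in either direction. Of the 18, 16 had positive fold changes, and edgeR gave 10 positive and 1 negative an unadjusted p under 0.05. Cd3e, of the T cell receptor complex, was at 8.38, 8.76 and 7.59 CPM with anti-OSM and 6.36, 5.91 and 7.59 CPM with anti-Ly6G, and did not pass (0.32, adjusted p = 0.138). Ncr1, which marks NK cells, had 39, 21 and 29 counts against 7, 2 and 34 (1.20, adjusted p = 0.325). Siglech, which marks plasmacytoid dendritic cells, was at 3.01, 2.72 and 3.10 CPM against 0.85, 0.71 and 2.44 CPM and did not pass (1.14, adjusted p = 0.130). Of 7 markers of that cell type 0 were called in edgeR and 1 was higher in DESeq2. Positive fold changes were seen for 6 of the 7, and edgeR gave 3 positive and 0 negative an unadjusted p under 0.05. The sums of the 7 markers were 766, 864 and 749 CPM against 956, 994 and 742 CPM, mostly from Ly6d, which keratinocytes also express. In Cd3e, Ncr1 and Siglech anti-Ly6G replicate 3 was the highest of its group, while in the plasmacytoid sum, which is mostly Ly6d, it was the lowest.

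Of the other marker lists, those of skeletal muscle and cartilage were mostly lower with anti-OSM. Fewer keratinocyte markers and no neutrophil markers were called in edgeR. Keratinocyte markers summed to 23090 to 27690 CPM with anti-OSM and 27707 to 35084 CPM with anti-Ly6G (1 higher and 2 lower of 10), and Krt14 was lower at -0.55 (edgeR adjusted p = 0.0271) while Krt5 had -0.22 (adjusted p = 0.231). Skeletal muscle markers summed to 2931 to 3525 against 4462 to 4857 CPM (9 of 10 lower), and cartilage markers to 200 to 214 against 373 to 411 CPM (8 of 9 tested lower). The shares of all tested genes were 5.81% higher and 6.27% lower. Neutrophil markers summed to 158 to 180 against 102 to 172 CPM with 0 of 7 tested called in edgeR and 1 higher in DESeq2, and their defining gene Ly6g had 3, 0 and 0 counts against 3, 3 and 3. The part of these cell types in the values of Ifit2, the receptor genes and the induction genes was not tested. In anti-OSM replicate 1, which had the lowest Cxcl9 and Cxcl10, the macrophage and dendritic cell sum was the highest of the 6 libraries, the keratinocyte and muscle sums were the lowest of the 6, and the T and NK cell and neutrophil sums were the lowest of its group. The part of these sums in the chemokine values was not tested either.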

How the data were processed

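Per the file headers, each library has columns of read count, FPKM and TPM. The counts are whole numbers as deposited, and neither the counting tool's settings nor its use of strand are given in the labels. FPKM values, also deposited, served only as a check of the columns. The TPM values deposited by the authors set levels between genes and gave 1 alternative. Among the tools in the submitters' processing notes, which state no roles, are HISAT2 2.1.0, StringTie 2.1.3b and edgeR 3.40.2, and mm10 is among the builds.

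The 6 libraries held 52163179 to 64122588 counts, and 16043 of the 45777 genes had none. Their counts were fitted in edgeR 4.0.16 (R 4.3.3) with filterByExpr, TMM factors, a robust quasi-likelihood fit, no covariate and 2-sided F-tests. Benjamini-Hochberg adjustment ran over all 19915 tested genes, with a threshold of 0.05. Alternatives were DESeq2 1.42.0, limma 3.58.1, other scalings and filters, a replicate block and leaving out each library. The scripts were tested on simulated data. Replicates differed by more than counting noise (chi-square of 26.2 or more per gene). Gene positions and promoter windows are from RefSeq, GRCm38.p6. The genes, lists and tests were chosen with earlier results of these data known. Values per library are given for called members, the smallest p in each family, the 3 highest in TPM and 9 set members. From the other lists come called genes, the 2 smallest p of each and 8 set genes. A gene of these is not reported here.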

Additional observations from a re-analysis of the deposited data

How the results depend on the processing

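Of the 35 genes, 1 was called in edgeR as reported, 0 with no filter, 3 in DESeq2, 0 with limma-trend on log2(TPM + 1) and 0 to 4 without 1 library; the 4 (Ifit2, Oas2, Cmpk2 and Trim30a) came without anti-Ly6G replicate 3, where 14.8% of all genes were called. With the replicate number as a block it was 4 (Ifit2, Ifit3, Oas2 and Trim30a). Over all tested genes, same-numbered libraries deviated together with correlations of 0.01, 0.04 and 0.12, against -0.12 to 0.08 for the other pairs. The labels do not say whether the numbers pair the libraries, and with 3 libraries in each group these correlations cannot settle it. Of the other pathway genes, 13 were called as reported, 8 with no filter, 20 in DESeq2, 8 with limma-trend, 23 with the replicate block and 0 to 29 without 1 library. In the same order, 12.1%, 7.23%, 19.4%, 8.44%, 13.1% and 3.45% to 14.8% of all tested genes were called. The difference between the type I and gamma medians was 0.60 to 1.10 without 1 library and 0.80 to 0.89 with other scalings, filters, tools or the replicate block. The sign of 19 members held in every alternative run. The other 16 changed sign when 1 library was left out, and in no other alternative, with ranges of -0.029 to 0.30 for Ddx58, -0.10 to 0.31 for Dhx58, -0.98 to 0.0014 for Ifi44, -0.080 to 0.24 for Ifih1, -0.54 to 0.39 for Ifit1, -0.80 to 0.17 for Iigp1, -0.16 to 0.60 for Irf7, -0.30 to 0.39 for Oas1a, -0.58 to 0.083 for Oas3, -0.15 to 0.57 for Oasl1, -0.48 to 0.26 for Oasl2, -0.35 to 0.59 for Rsad2, -0.11 to 0.63 for Rtp4, -0.15 to 0.27 for Usp18, -0.29 to 0.23 for Xaf1 and -0.10 to 0.67 for Zbp1. Leaving out 1 library leaves 2 in its group, and the causes of the other changes were not tested.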
